A study of Homo sapiens with 10 samples.

Results

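Chromatin accessibility was examined at 33 genes for voltage-gated and acid-sensing cation channels, of 19970 protein-coding genes in the RefSeq table. They code for 4 acid-sensing channels, 9 calcium channel pores, 6 auxiliary calcium channel subunits, 9 potassium channels and 5 sodium channel pores. A peak was counted for a member when it lay inside the gene body or within 20 kb of either end. These windows span 11.5 Mb and hold 555 of 120452 regions in the degron lists and 744 of the 157584 regions of WT and KO. The rule that assigns peaks to a gene used positions only. The members themselves were chosen with earlier results of these data known, so shares set beside all regions or windows may not be independent of that choice.

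The data are ATAC-seq peak lists, in which a transposase cuts open chromatin and the enriched intervals are called, from the human colorectal adenocarcinoma cell line DLD-1. The 10 libraries form 5 groups of 2, and the question of the design is what loss of GATA6, a zinc-finger transcription factor of the gut epithelium, does to open chromatin. The genotype GATA6-AID-IAA7 carries GATA6 fused to a degron, a peptide through which added auxin sends the protein to the proteasome, and all 3 of its groups share that fusion. AID_ctrl is labelled with auxin and a time of 0 h, is titled as control and was read as untreated. AID_aux had 12 h of auxin, for which the protocol gives 500 µM IAA, and AID_wash is labelled as washed, with a time of 1 and no unit. WT libraries come from cells with GATA6 intact, and GATA6-KO libraries (KO) from cells edited by CRISPR/Cas9. The protocol speaks of positive clones of the degron line in the plural, and does not say how many clones the libraries or the knockout represent. Nothing says that the 2 libraries of a group are separate cultures, so each p-value measures only the spread between libraries, which may be technical.

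Voltage-gated channels open when the membrane potential shifts, whereas acid-sensing channels open when extracellular protons bind. Calcium channel pores are built from one large alpha1 protein, and alpha2delta and beta subunits bring it to the membrane and tune its opening. These families are best known in neurons, heart and muscle, while KCNQ1 and KCNMA1 also carry potassium currents in the colon epithelium. Many of the genes are very long, so most of the DNA considered here is intragenic.

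The degron lists held 154150 to 198493 peaks on chromosomes 1 to 22 and X and covered 56.7 to 70.2 Mb. The WT lists held 92814 and 65939 windows of 500 bp and the KO lists 130311 and 116231, so the KO lists were longer at every comparison below. No read counts were used, so sequencing depth is unknown and precision is limited to what 2 lists per group show. The window of GATA6 itself held 14 and 15 called regions in AID_ctrl, 13 and 12 in AID_aux, 10 and 8 in WT and 14 and 13 in KO. Accessibility of that gene checks neither the protein loss nor the edit. Among marker genes with a listed promoter, those called in all 10 libraries were 4 of 4 for colon epithelium, 0 of 6 for heart and muscle, 2 of 5 for neurons, 0 of 1 for fibroblasts and 1 of 2 for blood, beside 46.5% of all genes. The fibroblast promoter was called in every library but WT replicate 2, and the heart and muscle promoters in none. In bulk chromatin, fewer cells with an open site and less opening per cell cannot be told apart.

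Most listed channel promoters were not called in any library. Of the 33 genes, 26 have at least 1 start in the RefSeq promoter table (GRCh38.p14), with 46 starts in all, each window running from 250 bases before to 50 after the start. A set of 5 genes, ASIC1, CACNA1D, CACNA2D1, KCNH2 and KCNMA1, had a start called in all 10 libraries. That is 5 of 26, or 19.2%, where the share over 15811 protein-coding genes was 46.5%. A further 15 genes, or 57.7%, were called in no library, against 31.5% of all genes. They were ASIC2, ASIC3, CACNA1A, CACNA1B, CACNA1C, CACNA1E, CACNA1I, CACNA1S, CACNA2D3, KCNC1, KCND2, KCND3, KCNH1, KCNQ5 and SCN1A. The other 6 genes, CACNA2D2, CACNB2, CACNB4, SCN2A, SCN8A and SCN9A, were called in some libraries. Starts outside the table were not examined, and the 1 listed start of CACNA1C, of CACNA1E and of ASIC2 lies inside the gene. In the 6 degron libraries alone, 7 of 26 genes (26.9%) were called throughout, against 61.8% of all genes. No member promoter was called by both KO libraries and neither WT library, a pattern found for 1.84% of all genes.

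By their median, the uncalled channel starts were not poor in CpG, the dinucleotide that marks CpG islands, but single starts varied widely. The 29 uncalled member starts had a median of 21 CpG in 300 bases, with a range of 1 to 54. For the 8004 uncalled starts of all genes the median was 6, with a range of 0 to 67. The 5 member starts called in all 10 libraries had a median of 26, beside 27 for the 8405 such starts of all genes. The 250 bases before 4 starts are shown to compare CpG-rich starts that were and were not called. The listed start of CACNA1C, the L-type calcium channel pore of heart and smooth muscle, lies at chr12:2052737-2052986 (+), has 51 CpG and was called in no library. The far start of KCNMA1, the large-conductance calcium-activated potassium channel, lies at chr10:77637809-77638058 (-), has 46 CpG and was also called in no library. CACNA1D, an L-type pore of endocrine and pacemaker cells, at chr3:53494361-53494610 (+) with 41 CpG, and CACNA2D1, an alpha2delta subunit, at chr7:82443957-82444206 (-) with 27 CpG, had starts called in all 10 libraries. Sequences are from RefSeq, in hg38 coordinates, 5′ to 3′ in the direction of the gene, and capitals mark each CG.
CACNA1C: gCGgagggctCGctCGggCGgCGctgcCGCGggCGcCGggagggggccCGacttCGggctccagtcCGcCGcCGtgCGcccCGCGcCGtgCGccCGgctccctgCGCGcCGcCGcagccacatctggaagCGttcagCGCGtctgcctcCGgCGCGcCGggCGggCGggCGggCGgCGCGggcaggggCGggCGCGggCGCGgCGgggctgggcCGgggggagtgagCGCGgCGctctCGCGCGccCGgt
KCNMA1, far start: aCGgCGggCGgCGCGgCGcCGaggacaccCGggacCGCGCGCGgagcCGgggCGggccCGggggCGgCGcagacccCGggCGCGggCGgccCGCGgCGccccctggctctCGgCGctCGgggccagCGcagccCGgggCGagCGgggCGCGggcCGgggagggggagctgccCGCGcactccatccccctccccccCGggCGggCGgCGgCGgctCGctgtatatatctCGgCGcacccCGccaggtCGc
CACNA1D: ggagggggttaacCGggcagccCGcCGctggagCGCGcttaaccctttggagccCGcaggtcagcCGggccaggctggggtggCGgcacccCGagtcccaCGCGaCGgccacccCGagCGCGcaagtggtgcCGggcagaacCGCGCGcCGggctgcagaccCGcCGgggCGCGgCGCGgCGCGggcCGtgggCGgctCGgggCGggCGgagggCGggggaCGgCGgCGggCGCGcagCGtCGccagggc
CACNA2D1: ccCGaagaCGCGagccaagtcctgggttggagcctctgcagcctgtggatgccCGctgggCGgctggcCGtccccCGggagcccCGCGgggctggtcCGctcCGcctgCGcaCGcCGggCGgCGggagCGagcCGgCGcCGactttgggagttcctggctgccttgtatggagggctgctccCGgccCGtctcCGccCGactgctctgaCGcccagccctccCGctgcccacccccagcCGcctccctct

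KCNMA1 has another listed start inside the gene, at chr10:77350762-77351011 (-), with 1 CpG in 250 bases, and this one was called in all 10 libraries. It lies within a region at chr10:77350147-77352074 whose enrichment over background, as the authors' peak caller gave it, was 13.8 and 15.3 in AID_ctrl and 15.1 and 15.6 in AID_aux. This internal start thus stayed called where the CpG-rich far start of the same gene never was. It also holds a GATA-type motif. The motif was searched on both strands in the forms AGATAA and, with another first letter, TGATAA, and in the forms AGATAG and, likewise, TGATAG. Of the member starts, 7 of 46 (15.2%) hold one, against 19.97% of all 22131 starts in the table. The start of ASIC2, a proton-gated sodium channel subunit of neurons, at chr17:33293296-33293545 (-), has such a motif too, on the other strand, and was called in no library. Capitals below mark the motif, at bases 25 to 30 of KCNMA1 and 20 to 25 of ASIC2. A match is a description of letters only.
KCNMA1, internal start: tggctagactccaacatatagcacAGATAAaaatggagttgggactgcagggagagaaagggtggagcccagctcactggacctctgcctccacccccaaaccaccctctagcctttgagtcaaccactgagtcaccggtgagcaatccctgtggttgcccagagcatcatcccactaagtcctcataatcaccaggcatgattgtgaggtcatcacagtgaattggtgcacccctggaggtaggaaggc
ASIC2: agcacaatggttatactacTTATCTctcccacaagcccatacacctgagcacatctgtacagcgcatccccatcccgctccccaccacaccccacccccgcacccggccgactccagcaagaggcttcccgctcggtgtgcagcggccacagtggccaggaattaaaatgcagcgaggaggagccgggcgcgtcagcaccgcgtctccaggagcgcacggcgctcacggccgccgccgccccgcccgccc

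**Figure D1:**
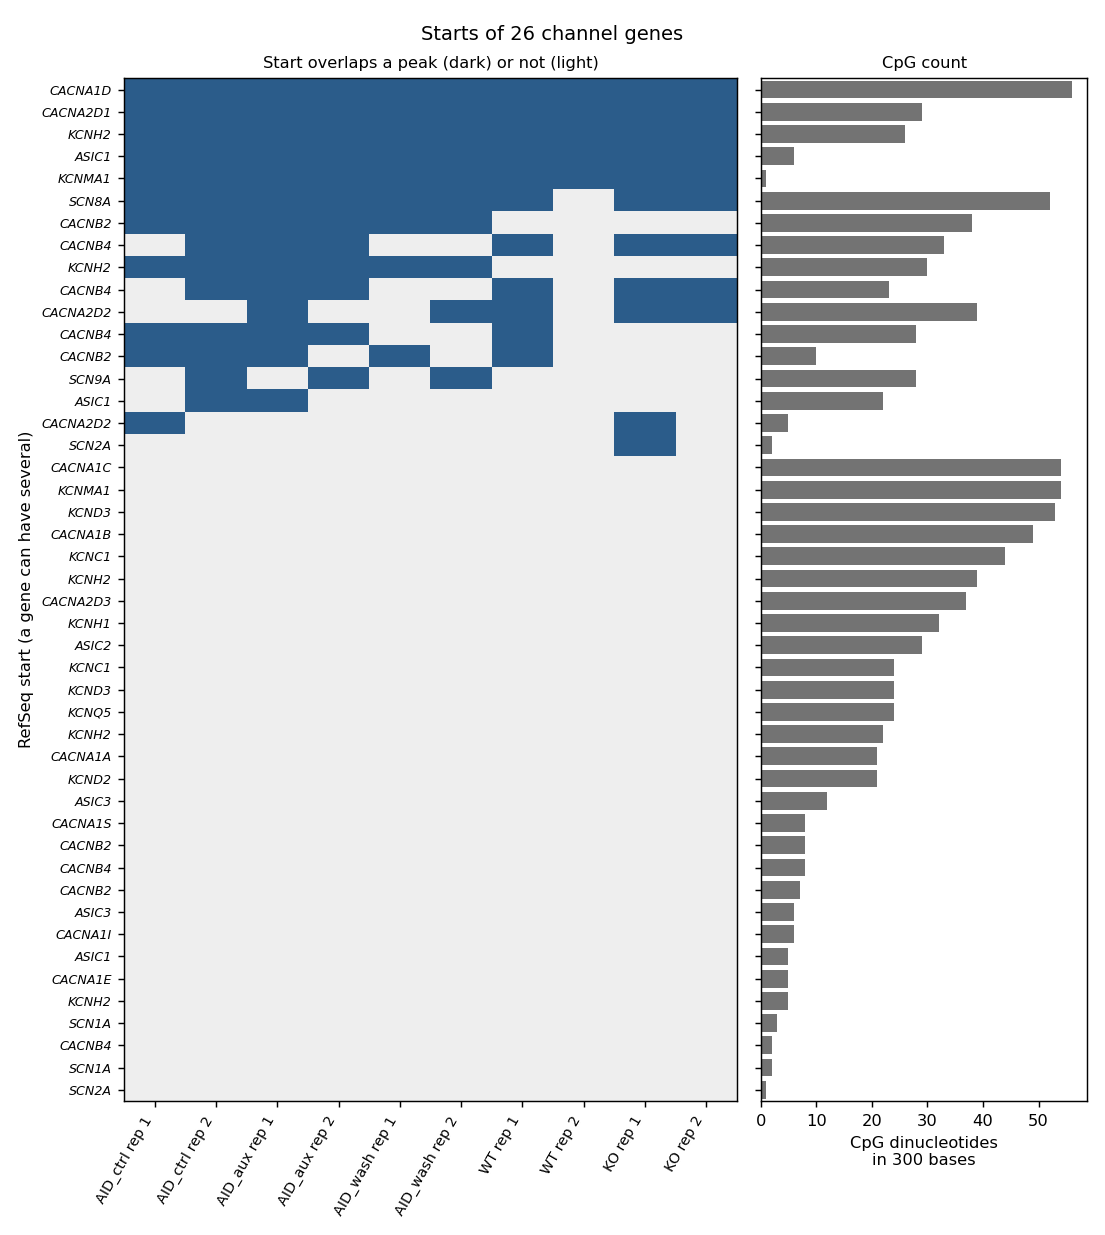
Calls in the 10 libraries (dark, called) and CpG dinucleotides per 300 bases (bars) for the 46 listed starts of 26 members, 1 line per start. Starts called in no library reach 54 CpG (CACNA1C and the far start of KCNMA1), and the internal start of KCNMA1 has 1 CpG and was called in all 10.

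Regions were somewhat sparser in the median member window than in the median window over all genes. The median member window held 5.23 regions per 100 kb in the degron lists, against 6.85 over all genes, and 6.97 against 8.70 in the WT and KO lists. Windows were long, with a median of 262 kb against 64.2 kb. Only 9.37% of the member regions in the degron lists lay within 1 kb of a gene end, against 13.2% of all regions. Of the 555 member regions, 114 also lay in the window of another gene. The density ranged from 0.489 regions per 100 kb at the sodium channel gene SCN1A to 17.7 at KCNH2, the channel of the rapid repolarizing potassium current of the heart.

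KCNMA1 and KCNQ1 were the most covered members before any treatment. KCNMA1 had 36.5 and 35.2 kb of its window under peaks in AID_ctrl, and KCNQ1, which carries the slow potassium current of the heart and a basolateral current of colon crypts, had 21.4 and 21.9 kb. The 4 sodium channel genes on chromosome 2 lay at the other end. SCN1A had 0.580 and 0.431 kb, SCN2A 1.22 and 0.256 kb, SCN9A 0.796 and 1.42 kb, and SCN3A had none in AID_ctrl. Over all degron libraries, the median enrichment of member regions was 6.08 to 6.77, beside 6.73 to 7.20 for all regions of the same lists. All 6 libraries called 224 of the 555 member regions, and 62170 of the 120452 regions over the whole genome. The 224 had medians of 7.66 to 9.23, beside 7.99 to 9.10 for the 62170. A member region among the highest stood inside KCNQ1 at chr11:2612038-2613744, with 13.8 and 14.7 in AID_ctrl and 16.6 and 14.2 in AID_aux.

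Auxin for 12 h removed and added few channel regions, and about as many of each. A region was called lost when both AID_ctrl libraries and neither AID_aux library called it, gained where the calls were the other way round, and retained with all 4 calls. Of 517 member regions called in at least 1 of these libraries, 18 were lost, or 3.48%, where 2.36% of all regions were. Another 19 were gained, or 3.68%, against 2.58% of all regions. The retained share was 49.7%, below the 59.6% over all regions. Among the 467 regions over 1 kb from any gene end, 18 were lost (3.85%, background 2.52%) and 18 gained (3.85%, background 2.81%). With 2 libraries against 2 these counts have no test. Leaving out any 1 of the 4 libraries, so that a single call decides for its group, gave 28 to 44 lost and 34 to 64 gained, while over all regions 3965 to 7929 were lost and 5621 to 11585 gained, in place of 2729 and 2974.

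By family the counts were small and have no test. The KCNQ potassium channels had 7 lost and 3 gained of 77 regions, the auxiliary calcium channel subunits 4 and 5 of 110, and the other potassium channels 4 and 4 of 105. Acid-sensing channels had 1 lost and 3 gained of 59, and the L-type pores and the P/Q, N and R-type pores each had 1 and 1, of 57 and 48. The T-type pores and the sodium channels had no lost region and 1 gained each, of 43 and 18. KCNQ5, a subunit of the M-type potassium current that damps neuronal firing, alone held 5 of the 18 losses. KCNMA1 and CACNA2D3, an alpha2delta subunit, held 3 each, so these 3 genes, picked for their counts, held 11. Of the 517 regions, KCNQ5 held 27, KCNMA1 57 and CACNA2D3 32.

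**Figure D2:**
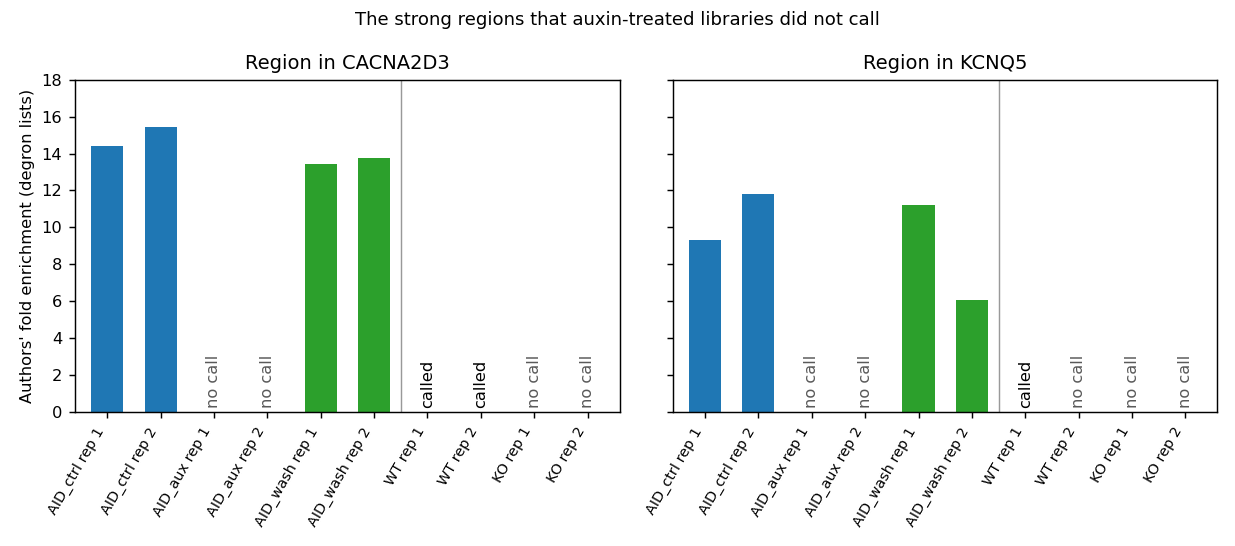
Fold enrichment given by the authors' peak caller (bars, degron lists) at the 2 strong regions lost with auxin, by library, with the WT and KO lists, which carry no enrichment, shown as called or not. The CACNA2D3 bars stand at 14.4 and 15.4 in AID_ctrl and 13.5 and 13.8 in AID_wash, with no call in AID_aux or KO.

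Of the lost regions, 2 were strong, that is, in the top 50% of both AID_ctrl lists by −log10 p, or 0.387% of 517 regions, where 0.165% of all regions were strong and lost. The first lies inside CACNA2D3 at chr3:54801689-54802512 in hg38, 679.5 kb from the 5′ end of the gene. Its enrichment was 14.4 and 15.4 in AID_ctrl, no peak was called in either AID_aux library, and it was 13.5 and 13.8 in AID_wash. Both WT libraries called a window there and neither KO library did. The region was therefore called in all AID_ctrl, AID_wash and WT libraries and in no AID_aux or KO library. Whether it is exonic or intronic is not given in the sources used here.

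That pattern over all 10 lists was rare. Among 555 member regions, 1 (0.180%) was called by both AID_ctrl, both AID_wash and both WT libraries and by no AID_aux or KO library, and 0.13% of all degron regions were. Without the condition on WT, 4 member regions (0.721%) had it, against 0.422% of all. These are 1 and 4 regions, and the shares have no test.

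The second strong loss lies inside KCNQ5 at chr6:73091554-73093011, 470.2 kb from the 5′ end. Enrichment was 9.30 and 11.8 in AID_ctrl, absent in AID_aux, and 11.2 and 6.09 in AID_wash. WT replicate 1 called it, and WT replicate 2 and both KO libraries did not. A neighbouring lost region at chr6:73109481-73110361 had 7.30 and 7.55 in AID_ctrl and 5.89 and 10.4 in AID_wash, and was called by none of the WT and KO libraries. Another close by, at chr6:73131781-73132861, had 5.12 and 5.70 in AID_ctrl, was called by neither AID_wash library and, of the WT and KO libraries, by KO replicate 1 alone. The other 2, at chr6:72950208-72950662 and chr6:73024715-73024956, were called by both KO libraries. Of these, the first was called by neither WT library and the second by WT replicate 1 alone. So the KO libraries called some of the regions that auxin removed from this gene and not others. No such region was called by both WT libraries, so the calls show no loss there in KO against WT.

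Covered length did not separate the auxin groups at any member by the model. KCNQ5 had 17.8 and 17.3 kb under peaks in AID_ctrl, 13.5 and 15.1 kb in AID_aux, and 14.1 and 16.1 kb in AID_wash. The AID_aux values lay below both controls, and those of AID_wash reached from among the AID_aux values to just under the controls. CACNB2, a beta subunit of heart and brain calcium channels, had 7.27 and 5.85 kb in AID_ctrl, 5.20 and 4.36 kb in AID_aux, and 3.39 and 4.55 kb in AID_wash. Its AID_aux values were lower without overlap, and AID_wash was not back at the control level. CACNA2D2, an alpha2delta subunit of the cerebellum, had 6.65 and 6.12 kb in AID_ctrl and 8.07 and 7.01 kb in AID_aux, higher without overlap.

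On the log2 scale of covered bp per covered Mb plus 5, the differences were −0.27 (SE 0.09) for KCNQ5, −0.40 (SE 0.12) for CACNB2 and 0.25 (SE 0.09) for CACNA2D2. Their adjusted p-values by limma, with Benjamini-Hochberg adjustment over 16924 gene windows, were 0.557, 0.479 and 0.598. Of 29 members tested, 0 were higher and 0 lower at an adjusted p under 0.05, where 0 of all windows were higher and 0.00591% lower. These 3 were the only members with an unadjusted p under 0.05 by limma, and 6.75% of all windows had one. Per Mb covered, both AID_aux libraries lay above both controls at 7 members (24.1%, background 21.1%) and below at 4 (13.8%, background 16%). SCN1A, SCN2A, SCN3A and SCN9A had under 1000 bp on average and were not tested.

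The remaining members with most changes differed less in covered length on the log2 scale, though not always in kb. KCNMA1 went from 36.5 and 35.2 kb in AID_ctrl to 34.2 and 33.1 kb in AID_aux, below both controls as listed, with 3 regions lost, 2 gained and 35 retained. KCNQ1 had 21.4 and 21.9 kb, then 24.1 and 22.5 kb, above both controls, with 1 lost and 1 gained. Neither passed the model, with adjusted p-values of 0.944 and 0.789. ASIC2 had 12.7 and 14.2 kb in AID_ctrl and 18.1 and 12.6 kb in AID_aux, which overlap, with 1 region lost and 3 gained. CACNA2D3 had 18.4 and 14.5 kb and then 15.9 and 15.5 kb, within the control range in spite of the loss of its strongest changed region. CACNA1A, the pore of the P/Q-type channel of Purkinje cells, had 6.87 and 4.41 kb and then 6.44 and 6.05 kb, also within the control range.

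No gained region was strong, where 0.00866% of all regions were strong and gained. The best ranked gain by −log10 p was in KCNQ5 at chr6:72748682-72749133, with enrichment of 7.73 and 6.12 in AID_aux and 5.47 and 4.17 in AID_wash, and it was called by WT replicate 1 and both KO libraries. The next, in KCNQ1 at chr11:2579174-2579835, had 3.95 and 4.35 in AID_aux and was called by neither AID_wash library, neither WT library and both KO libraries. Another KCNQ5 gain, at chr6:72787600-72787789 with 5.04 and 5.24, had the same calls. So did a gain in KCND3, a pore of the transient outward potassium current, at chr1:111947964-111948878 with 4.75 and 5.68. The gain in CACNA2D2 at chr3:50392251-50392789 had 3.98 and 3.67 in AID_aux and 3.30 in AID_wash replicate 1. All 5 were called by both KO libraries.

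The KO libraries, which share no library with the degron lists, called 16 of the 19 auxin gains in both replicates, or 84.2%. Over all auxin gains the share was 67.0%, and over all regions retained through auxin it was 95.6%. Of the 18 auxin losses, 10 were called by neither KO library, or 55.6%, against 50.3% of all losses. Among retained member regions 98.4% were called by both KO libraries. The shares for the losses were near those over all regions.

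For regions lost with auxin, the share called by both AID_wash libraries was near that over all regions. Both AID_wash libraries called 6 of the 18 lost regions, or 33.3%, against 32.4% of all lost regions. Neither called 4 of the 18 (22.2%, against 32.0% of all lost regions). The 6 were 3 in KCNQ5 and 1 each in CACNA2D3, KCNMA1 and KCND3. Of the 19 gained regions, 4 were called by both AID_wash libraries (21.1%, against 9.78% of all gains). Another 8 were called by neither (42.1%, against 50.8% of all gains). Against AID_aux, AID_wash gained 6 of 515 member regions (1.17%, background 1.21%) and lost 18 (3.50%, background 3.48%). With lists cut to equal length the members gained 9 and lost 15, while over all regions 2186 were gained and 2050 lost, in place of 1356 and 3897. The CACNA2D3 region was the only strong gain (background 0.074%), and no loss was strong, where 0.00892% of all regions were.

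Against AID_ctrl, AID_wash gained 6 of 498 member regions (1.20%, background 0.685%) and lost 13 (2.61%, background 2.67%). By limma, 0 of 29 members were higher or lower in AID_wash against AID_aux, where 0% of all windows were, with 1 member at an unadjusted p under 0.05, as had 6.77% of all windows. Against AID_ctrl the counts were also 0, with 3 members at an unadjusted p under 0.05 by limma, as had 6.399% of all windows. Leaving out 1 library at a time gave 22 to 65 lost and 8 to 44 gained regions against AID_aux, and 21 to 61 lost and 10 to 52 gained against AID_ctrl. Over all regions these were 5250 to 13793 lost and 2072 to 7458 gained, and 4157 to 10547 lost and 1972 to 7437 gained. Per library, AID_wash replicate 1 had 192 kb of peaks in member windows and replicate 2 had 233 kb, so the wash group was itself uneven.

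In the knockout, gained regions far outnumbered lost ones, at the members and over the whole genome. Of 744 member regions, 180 were gained in KO, or 24.2%, where 19.5% of all regions were, and 4 were lost, or 0.538%, against 1.24%. The retained share was 21.9%, against 31.9%. Away from gene ends, 175 of 686 regions were gained (25.5%, background 20.5%) and 4 lost (background 1.09%). The KO lists were longer, and the WT and KO lists carry no score by which they could be cut to equal length. Of the 180 gains, ASIC2, CACNA1C and CACNA1H, picked for their counts, held 56. The other 30 members gained 124 of 615 regions (20.2%), beside 19.5% over all regions. Leaving out genes picked in this way lowers the share by construction, and no such cut was made over all regions. Without WT replicate 1 the gained count was 307 and the lost count 61, without WT replicate 2 the lost count was 58, and without KO replicate 2 the gained count was 301. Over all regions the gained count went from 30771 to 55615 and 49575, and the lost count from 1958 to 10964 and 11278, under the same settings.

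Member windows took a larger share of the KO lists. They held 0.397% and 0.362% of the covered length in WT, and 0.466% and 0.432% in KO. Both KO values were above both WT values. The difference of the means was 0.0695 percentage points, with 0.449 ± 0.0246 (SD, n = 2) in KO and 0.380 ± 0.0249 (SD, n = 2) in WT, and a two-sided exact permutation p of 0.333, the smallest that 2 against 2 allows. In the degron groups the same share was 0.365% and 0.357% in AID_ctrl, 0.367% and 0.362% in AID_aux, and 0.339% and 0.362% in AID_wash. The shortest degron list, AID_wash replicate 1 with 56.7 Mb, had the lowest of these shares. The longest, AID_aux replicate 1 with 70.2 Mb, had the highest, and the lists between them did not all follow the order of length. AID_aux and AID_ctrl overlapped, and their difference of 0.00327 had an exact permutation p of 0.667. As a share of listed peaks in place of covered length the difference was 0.0102, without overlap (exact permutation p 0.333). AID_wash lay below AID_aux by covered length, with a difference of −0.0141 and no overlap (exact permutation p 0.333), so this test does not set the knockout apart from the wash.

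**Figure D3:**
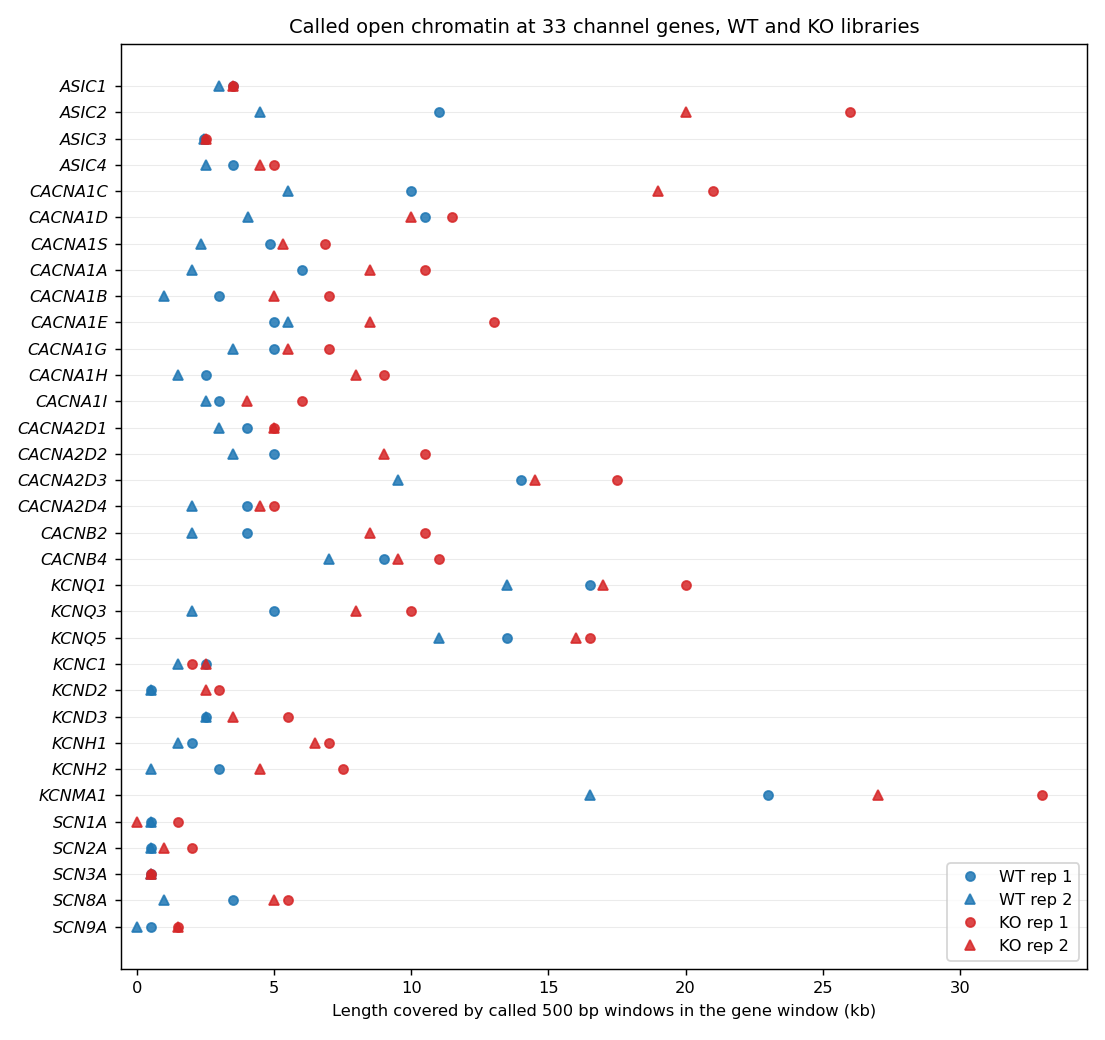
Length covered by called 500 bp windows in each member's gene window, in kb on a linear axis and before any scaling, with 1 point for each of 2 WT and 2 KO libraries and members ordered by role. The KO points of CACNA1H, KCNH1, CACNB2, ASIC2 and CACNA1C lie above both WT points, as they do for most members as listed.

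Gains were found in every family, and 1 gene held most of those in each of the 3 highest. Acid-sensing channels gained 27 of 86 regions (31.4%), of which ASIC2 held 24. L-type pores gained 28 of 93 (30.1%), of which CACNA1C held 21, and T-type pores gained 15 of 47 (31.9%), of which CACNA1H held 11. Without these 3 genes, picked for their counts, the shares were 3 of 23 (13.0%), 7 of 46 (15.2%) and 4 of 28 (14.3%), below the 19.5% over all regions. The P/Q, N and R-type pores gained 19 of 78 (24.4%), with CACNA1B 8, CACNA1E 7 and CACNA1A 4. Other potassium channels gained 33 of 139 (23.7%), KCNQ channels 23 of 120 (19.2%), auxiliary subunits 29 of 152 (19.1%) and sodium channels 6 of 29 (20.7%). The last 3 shares are near the 19.5% over all regions. ASIC1 and the sodium channel genes SCN1A and SCN3A gained none.

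**Figure D4:**
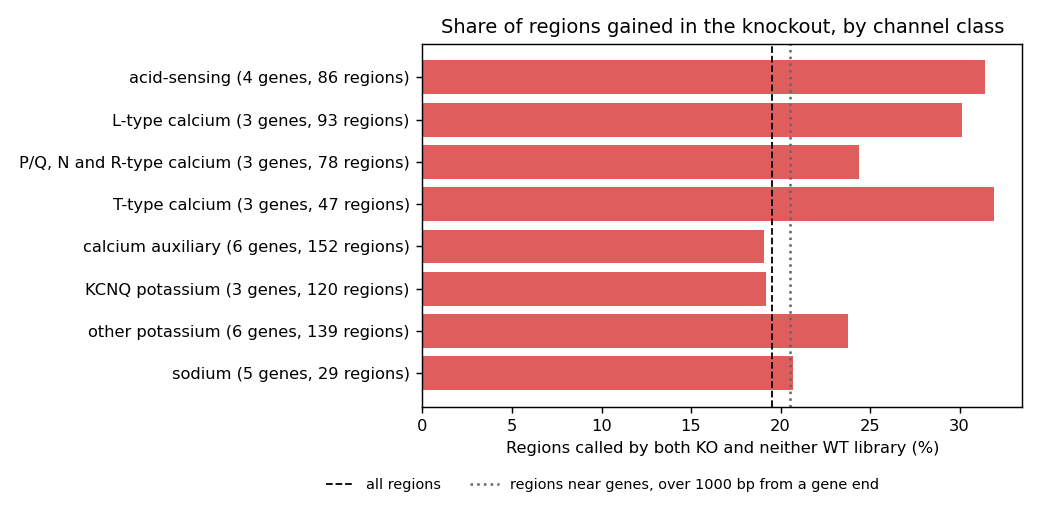
Percent of member regions gained in KO against WT for each role (bars), with the share over all regions (dashed line, 19.5%) and over regions near genes but over 1 kb from a gene end (dotted line, 20.5%). Acid-sensing, L-type and T-type channels reach 31.4%, 30.1% and 31.9%, values that fall to 13.0%, 15.2% and 14.3% without ASIC2, CACNA1C and CACNA1H.

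By limma, 5 members had more covered length in KO and none had less. CACNA1H, a T-type pore that opens at low voltage, had 2.5 and 1.5 kb under peaks in WT and 9 and 8 kb in KO. KCNH1, the ether-a-go-go potassium channel of brain, had 2 and 1.5 kb in WT and 7 and 6.5 kb in KO. CACNA1C had 10 and 5.5 kb in WT and 21 and 19 kb in KO. In each the KO libraries lay above both WT libraries and close to each other. CACNB2 had 4 and 2 kb in WT and 10.5 and 8.5 kb in KO. ASIC2 had 11 and 4.5 kb in WT and 26 and 20 kb in KO, again without overlap and with the wider spread in WT.

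After division by the covered length of the library, the log2 differences were 1.39 (SE 0.20) for CACNA1H, 1.22 (SE 0.20) for KCNH1 and 0.76 (SE 0.15) for CACNA1C. They were 1.03 (SE 0.20) for CACNB2 and 1.02 (SE 0.20) for ASIC2. Adjusted p-values by limma over 16478 windows were 0.0227, 0.0311, 0.0414, 0.0426 and 0.0428. Of 30 members, 5 were thus higher, where 0.619% of all windows were, and 0 were lower, where 0.37% were. Windows of the 33 members were long (median 262 kb, against 64.2 kb over all genes), and this background was not matched for length. The median log2 difference was 0.18 over the members and −0.12 over all windows, and 20 of 30 members were positive, against 40.1% of all windows. At an unadjusted p under 0.05 there were 15 of 30 members by limma, against 22.9% of all windows, of which 12 were higher and 3 lower.

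These 5 calls stood close to the threshold. Without KO replicate 1 all 5 lost the call (adjusted p 0.136 to 0.478 by limma), without KO replicate 2 only ASIC2 of the 5 kept it (adjusted p 0.0107), and with gene bodies alone or with every window above 0 bp none of the 5 kept it. Without WT replicate 2 the difference at ASIC2 fell to 0.63, with the call kept. With 1 library left in a group the model takes its spread from the other group.

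As listed, both KO libraries had more covered length than both WT libraries at 27 of 30 members, against 52.8% of all windows. Both KO libraries were above both WT libraries per Mb covered at 14 of 30 members (46.7%, background 19.5%) and below at 8 (26.7%, background 37.9%). KCND2, the partner pore of the transient outward current, had 0.5 and 0.5 kb in WT and 3 and 2.5 kb in KO, a log2 difference of 1.47 (SE 0.37) that did not pass (adjusted p 0.0727 by limma). CACNA1B, the N-type pore of presynaptic terminals, had 3 and 1 kb in WT and 7 and 5 kb in KO (adjusted p 0.0911 by limma). KCNQ3, a partner of KCNQ5 in the M-type current, had 5 and 2 kb and then 10 and 8 kb (adjusted p 0.0989 by limma). The KO libraries of all 3 lay above both WT libraries without a call.

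KCNMA1, KCNQ1, CACNA2D3 and KCNQ5, the members most covered in WT, did not share this after scaling. KCNMA1 had 23 and 16.5 kb in WT and 33 and 27 kb in KO, with 13 regions gained and 24 retained of 77. After division by covered length its log2 difference was −0.04 (SE 0.10, adjusted p 0.843 by limma). KCNQ1 had 16.5 and 13.5 kb in WT and 20 and 17 kb in KO, with 8 gained, 2 lost and 18 retained of 55, and a log2 difference of −0.34 (SE 0.12, adjusted p 0.139 by limma). CACNA2D3 had 14 and 9.5 kb in WT and 17.5 and 14.5 kb in KO, with 7 gained, 1 lost and 11 retained of 47, and a log2 difference of −0.18 (SE 0.13, adjusted p 0.392 by limma). KCNQ5, which led the auxin losses, had 13.5 and 11 kb in WT and 16.5 and 16 kb in KO, with 7 gained and none lost of 41. In these 4 genes the KO lists were longer as listed, and the fitted difference was below 0 after scaling, with no call.

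The 4 sodium channel genes on chromosome 2 held little in both genotypes. SCN1A had 0.5 and 0.5 kb in WT and 1.5 and 0 kb in KO, and SCN3A had 0.5 kb in each of the 4 libraries. SCN9A had 0.5 and 0 kb in WT and 1.5 kb in both KO libraries. These 3 fell under the minimum length and were not tested. SCN2A had 0.5 and 0.5 kb in WT and 2 and 1 kb in KO, a log2 difference of 0.66 (SE 0.55, adjusted p 0.483 by limma). SCN8A on chromosome 12, the sodium channel pore of the axon initial segment and nodes, had the family's largest covered length in each library. It had 3.5 and 1 kb in WT and 5.5 and 5 kb in KO, and 4 of the 6 gained regions.

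The 1 Mb flanks of the 5 called genes show how far the gains ran. The genes were called for a rise inside their windows, so a larger share inside than outside is not independent of that choice. CACNA1H gained 57.9% of its 19 regions, against 17.4% and 11.7% of the regions in the lower and higher flank. KCNH1 gained 47.1%, against 21.3% and 16.9%, and CACNA1C 44.7%, against 22.4% and 19.1%. ASIC2 gained 38.1%, against 17.1% in the lower and 32.9% in the higher flank, where 26 of 79 regions were gained, so gains there were also frequent past the gene. CACNB2 gained 29.2%, against 7.58% and 20.5%. All 24 gains in ASIC2 and all 21 in CACNA1C lay over 1 kb from any gene end.

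**Figure D5:**
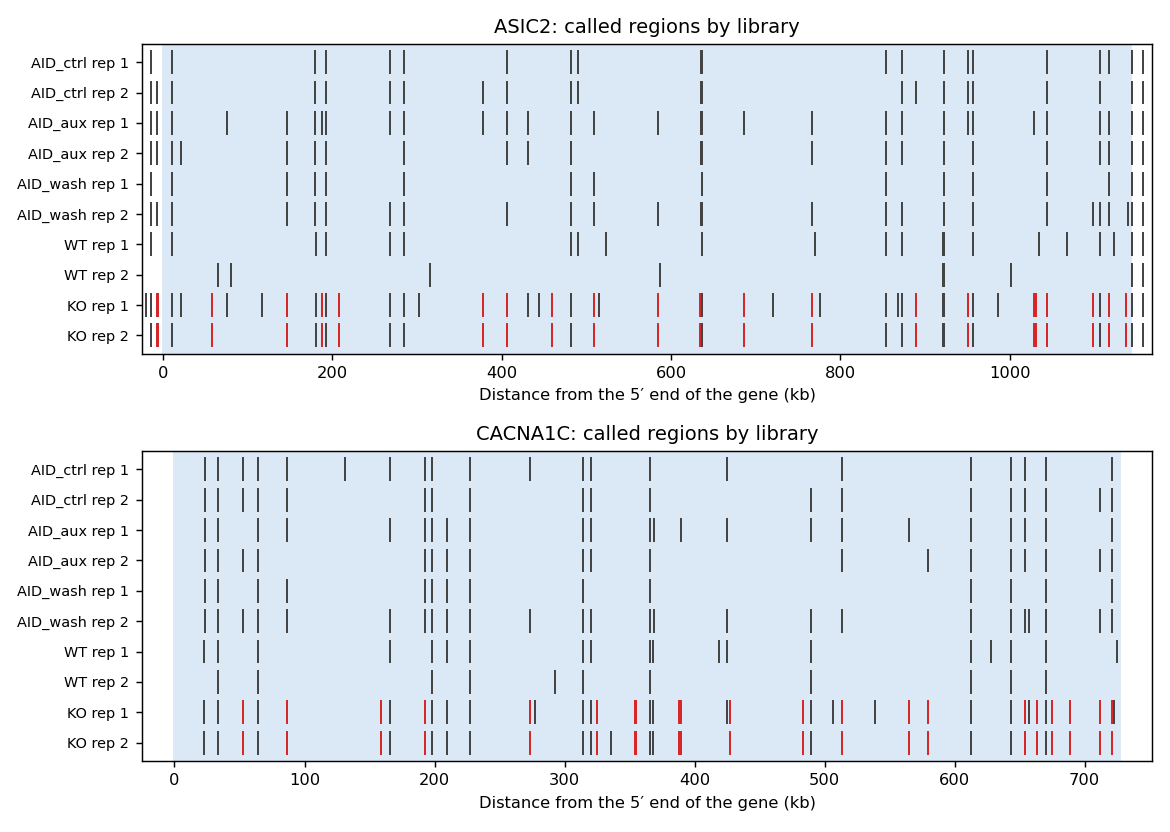
Called regions along ASIC2 and CACNA1C in each of the 10 libraries, by distance from the 5′ end of the gene in kb, with the gene body shaded, one mark per called region and red marks for regions gained in KO. The 24 red regions of ASIC2 and the 21 of CACNA1C are spread along each gene, and part of them also carry marks in degron libraries.

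The 5 widest gained regions were inside KCNQ5 (chr6:72649495-72650529), CACNA1A (chr19:13398842-13399540), CACNA1D (chr3:53705185-53705880), CACNA2D3 (chr3:54353740-54354424) and KCND3 (chr1:111948043-111948725). The first 4 were called by none of the 6 degron libraries. The KCND3 region overlaps the one gained with auxin and was called by both AID_aux libraries and by no AID_ctrl or AID_wash library. The 4 lost regions were at chr11:2549212-2549982 and chr11:2645086-2645814 in KCNQ1, at chr2:165074333-165075196 just outside SCN3A, and the CACNA2D3 region described above. Apart from the last, none was called in the degron lists, that is 3 of 4, where 26.5% of all regions lost in KO were called by no degron library.

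About as many of the KO gains as elsewhere were already called in the untreated degron line. Both AID_ctrl libraries called 46 of the 180, or 25.6%, against 23.6% of all gained regions, and no degron library called 63 (35%, against 41.1%). All 6 degron libraries called 18 of them (10.0%, against 10.5%). Of the 24 gains in ASIC2, 4 were called by both AID_ctrl libraries and 7 by no degron library, and of the 21 in CACNA1C the counts were 6 and 10. The degron line and WT differ in lists of different form, so this is a count of overlaps and not a comparison of levels.

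In 49 further genes of the same channel families, 98 of 373 regions were gained in KO (26.3%) and none lost, led by KCNB2 with 10 and CACNG2 with 8, and with auxin 7 of 309 were lost and 13 gained. Neuronal marker genes gained 39 of 156 regions in KO (25%), but RBFOX3 held 17 and SYT1 10 of these, and the other 8 neuronal markers gained 12 of 67 (17.9%). Heart and muscle markers gained 6 of 44 (13.6%), fibroblast markers 4 of 25 (16%), blood markers 9 of 46 (19.6%) and colon epithelium markers 10 of 121 (8.26%). The whole neuronal list lay above the 19.5% over all regions, the blood list near it, and the heart and muscle and fibroblast lists below it. Leaving out RBFOX3 and SYT1, picked for their counts, lowers the neuronal share by construction, and no other marker list was cut in this way. The part of a change in cell make-up in the channel gains was not tested.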

How the data were processed

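Peaks were listed per library by the authors, and the submitters' processing notes name MACS2 2.1.1, Bowtie2 2.4.2, Trim Galore 0.6.10, Picard and the build hg38. No source used here gives their parameters or the handling of the transposase offset. The 6 deposited degron lists carry a score, a fold enrichment ratio and a −log10 p-value and q-value for each peak, and these are the authors' values, used only to describe or rank peaks within one list. The lists deposited for WT and KO give only coordinates, of 500 bp windows. Omni-ATAC was run on 50000 viable cells with 150-nt paired reads, per the labels' protocols.

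Overlapping peaks (chromosomes 1 to 22, X) were merged over the 6 degron lists and, apart, over the 4 WT and KO lists, and an overlap of 1 bp was a call. For limma 3.58.1 (R 4.3.3) the covered bp per gene window were divided by the covered Mb of the library, a pseudocount of 5 was added before log2, and windows with a mean of at least 1000 bp over the libraries of the fit were tested. The 3 degron groups shared one fit, and WT and KO had another. The script was tested on data with known answers. The share of each list was tested by a two-sided exact permutation test. Starts and sequences came from RefSeq (GRCh38.p14).

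Members and lists were chosen with earlier results of these data known. Values per library are given for the 8 members with most lost plus gained regions with auxin and in KO and for those called by limma. Regions named are the strong ones lost or gained with auxin, otherwise the 5 best ranked, and for KO the 5 widest gained and those lost. Other members, regions and starts were named after their values were seen. Alternatives covered the window, the overlap, list length, pseudocount, filter, scaling, the replicate block and each library left out.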

Additional observations from a re-analysis of the deposited data

How the results depend on the processing

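Depth is unknown, and 2 libraries per group limit every count here. Counts of member regions stayed within 1.5 times of the reported ones with windows of 50 kb, outside the windows of other genes and with equal list lengths, the last for the degron lists alone. Where a call needed peaks over at least 50% of the region, the lost count rose from 18 to 29 for AID_aux against AID_ctrl, from 18 to 31 for AID_wash against AID_aux and from 13 to 23 for AID_wash against AID_ctrl. Among strong regions these lost counts were 2, 0 and 0, and the gained counts were 0 in place of 19, 1 in place of 6 and 0 in place of 6. A stricter call or a single library per group changes these counts by its construction.

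Leaving out 1 library at a time gave 28 to 44 lost and 34 to 64 gained regions for AID_aux against AID_ctrl. It gave 22 to 65 lost and 8 to 44 gained for AID_wash against AID_aux, 21 to 61 lost and 10 to 52 gained for AID_wash against AID_ctrl, and 4 to 61 lost and 184 to 307 gained for KO against WT. By limma, members lower in AID_wash against AID_aux went from 0 to between 0 and 1 (1 without AID_wash replicate 2). Members higher in KO went from 5 to between 0 and 15, and members lower in KO from 0 to between 0 and 5 (5 without WT replicate 1). Over all windows, calls in KO also rose in both directions without WT replicate 1. With 1 library left in WT the model takes its spread from KO, so these counts were not read as changes at the members.

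No member was higher in KO with every window above 0 bp (0) or with gene bodies alone (0), by limma, and the cause was not tested. ASIC2 also lost its call with a pseudocount of 1 (adjusted p 0.0518 by limma). No difference changed sign under any setting run for the 5 called members.

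Replicate numbers did not pair the libraries, since the deviations of same-numbered libraries correlated at 0.037, −0.063, −0.146 and 0.049. With the replicate number as a block, 12 members were higher in KO in place of 5, and no other member count changed. Calls also rose over all 16478 windows, with 751 higher in KO in place of 102 and 1053 lower in place of 61. Crossing the numbers of AID_aux and AID_wash, an alternative chosen after seeing the data, gave 0 members higher and 0 lower.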
